A study of Mus musculus with 16 samples.

Results

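Zfp503, Tcf24, Irx2, Irx3 and Irx5 are genes for transcription factors that lie outside the Hox clusters, and these 5 were taken from the 54123 mouse genes whose reads were summed in each library. Zfp503 and Tcf24 were chosen by their read counts, which had been seen to be near 0 in distal and not in proximal organoids, and Irx2 was chosen by its read counts too, which had been seen to vary between cultures. Their region differences, and the spread of Irx2 between cultures, are therefore given as descriptions with no test. No measurement is recorded as the ground for choosing Irx3 and Irx5. Of the 5 genes, 4 passed the filter on low counts, and Irx5 did not.

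RNA-seq was run on 16 libraries of mouse colon organoids, which are epithelial cultures grown in gel, in 8 groups of 2 replicates. The groups cross the region of origin (proximal or distal), the guide (Cdx2-sgRNA, or Scramble-sgRNA as control) and the medium (WENR-plus or WENR-minus). Wnt3a, EGF, Noggin and R-spondin 1 are the factors named by WENR. All groups came from female mice aged 8 weeks with a heterozygous BrafV600E allele and a heterozygous tdTomato reporter, each of which needs Cre to be switched on, and Cre was not given to any of these groups. All were transduced with a lentivirus that carries Cas9 and a guide, selected with blasticidin and grown for 4 months, then kept for 2 days in WENR-plus and for 3 days in WENR-plus or WENR-minus. Organoids with Cdx2-sgRNA were clones of single cells with frameshifts in both alleles of Cdx2, a homeobox gene that sets intestinal identity, and no such cloning step is stated for the Scramble-sgRNA organoids. Guide and cloning therefore cannot be told apart.

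Total counts per library ranged from 12465194 to 18922143. Hoxb13, a marker of the distal colon, had 8 to 18 reads in proximal and 1649 to 4903 in distal libraries, which matched the region labels. Reads of Cdx2 remained in edited organoids, and in proximal organoids they were lower with Cdx2-sgRNA in both media (log2 fold change −2.09, adjusted p = 5.48e-05 in WENR-plus; −1.29, adjusted p = 0.000679 in WENR-minus). The 8 distal libraries of either guide had 949 to 1535 reads of Cdx2. The 9 colon epithelial markers summed to at least 2779 CPM (counts scaled to library size) in every library, and the 6 fibroblast markers to at most 1.12 CPM.

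Zfp503, also known as Nolz1, belongs with Zfp703 to the NET family of zinc finger proteins, which repress transcription together with Groucho corepressors and pattern the embryonic limb and nervous system. Tcf24 encodes a basic helix-loop-helix (bHLH) factor whose role is little known; proteins of this class usually bind DNA as a pair with a widely expressed E protein, and Id proteins take the E proteins away. The Iroquois genes (Irx) encode TALE class homeodomain proteins that divide the embryo into regions, and in mammals they lie in a pair of clusters, with Irx2 in one and Irx3 and Irx5 in the other.

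Zfp503 (ENSMUSG00000039081) lies on the minus strand at chr14:21983959-21989601, Tcf24 (ENSMUSG00000099032) on the minus strand at chr1:9960163-9967932, Irx2 (ENSMUSG00000001504) on the plus strand at chr13:72628820-72634198, Irx3 (ENSMUSG00000031734) on the minus strand at chr8:91798525-91802067 and Irx5 (ENSMUSG00000031737) on the plus strand at chr8:92357625-92376286 (GRCm38). The RefSeq promoter table (GRCm38.p6) held 3 of the 5 genes, Zfp503, Irx2 and Irx3. The 250 bases before the start are shown for Zfp503, which carried the called differences, and for Irx2, which differed most between cultures. They are chr14:21989602-21989851 on the minus strand and chr13:72628570-72628819 on the plus strand.
Zfp503: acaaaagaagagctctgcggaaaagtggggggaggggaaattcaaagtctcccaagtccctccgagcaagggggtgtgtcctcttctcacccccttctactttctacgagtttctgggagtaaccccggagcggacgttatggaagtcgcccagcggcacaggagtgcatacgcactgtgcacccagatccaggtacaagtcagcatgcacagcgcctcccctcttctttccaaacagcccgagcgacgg
Irx2: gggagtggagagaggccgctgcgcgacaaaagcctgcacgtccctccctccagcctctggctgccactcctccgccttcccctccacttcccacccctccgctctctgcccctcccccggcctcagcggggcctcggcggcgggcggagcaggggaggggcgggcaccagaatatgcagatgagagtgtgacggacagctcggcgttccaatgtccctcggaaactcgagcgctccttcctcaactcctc
Their GC content was 57.2% and 68.4%, where the median of the 32851 promoters in the table was 52.4%. Motifs were searched for by their letters on both strands, with no mismatch allowed. TTTATNG, of the Cdx type, occurred in 9.81% of all promoters over the same 250 bases, TGACAG, of the TALE type, in 15.9%, and the palindrome ACANNTGT, of the Iroquois type, in 6.31%. None of the 3 was found in the window of Zfp503, Irx2 or Irx3, which says only that these letters are not there, so nothing is in capitals.

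The Iroquois genes share coding sequence, which bears on how reads were split among them. A run of 65 bases is the same in an exon of Irx2 at chr13:72630733-72630797 and in an exon of Irx5 at chr8:92359696-92359760, both on the plus strand. A run of 50 bases is the same in an exon of Irx3 at chr8:91800593-91800642 on the minus strand and in the same exon of Irx5 at chr8:92359669-92359718 on the plus strand. Capitals mark the 23 bases that both runs hold.
Irx2 and Irx5: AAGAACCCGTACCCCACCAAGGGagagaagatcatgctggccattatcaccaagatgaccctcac
Irx3 and Irx5: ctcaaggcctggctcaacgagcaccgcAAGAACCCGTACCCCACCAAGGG
Of the different 31-base words in the transcripts of a gene, 0.406% of those of Zfp503, 1.06% of Irx2, 2.03% of Irx5, 6.08% of Irx3 and 14.4% of Tcf24 also occurred in transcripts of another gene. Nearly all of those of Tcf24 were shared with E330040D14Rik, which overlaps it and had at most 1 read in any library. Irx3os, which overlaps Irx3, had at most 4 reads.

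Zfp503 was read in every proximal library and hardly at all in distal ones. In proximal Scramble-sgRNA organoids it had 280 and 300 reads in WENR-plus and 124 and 122 in WENR-minus. In proximal Cdx2-sgRNA organoids it had 274 and 437 reads in WENR-plus and 227 and 409 in WENR-minus. The 8 distal libraries had 0 to 4 reads each and 10 together, so that no distal library came near a proximal one. In Scramble-sgRNA organoids Zfp503 was at least 99.9-fold higher in proximal than in distal organoids in WENR-plus, where the distal group was set to the floor of 3 reads per library. The proximal to distal ratio, from summed reads and with a 95% exact interval that covers counting error only, was 93.8 (25.7 to 779) in Scramble-sgRNA WENR-minus, 238 (81.2 to 1158) in Cdx2-sgRNA WENR-plus and 93.4 (39.8 to 289) in Cdx2-sgRNA WENR-minus. The bound takes 3 reads per distal library and the ratios take the reads found, so their sizes cannot be set against each other. They are the pattern by which the gene was chosen. In bulk RNA, fewer cells of a type and less RNA per cell cannot be told apart.

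**Figure D1:**
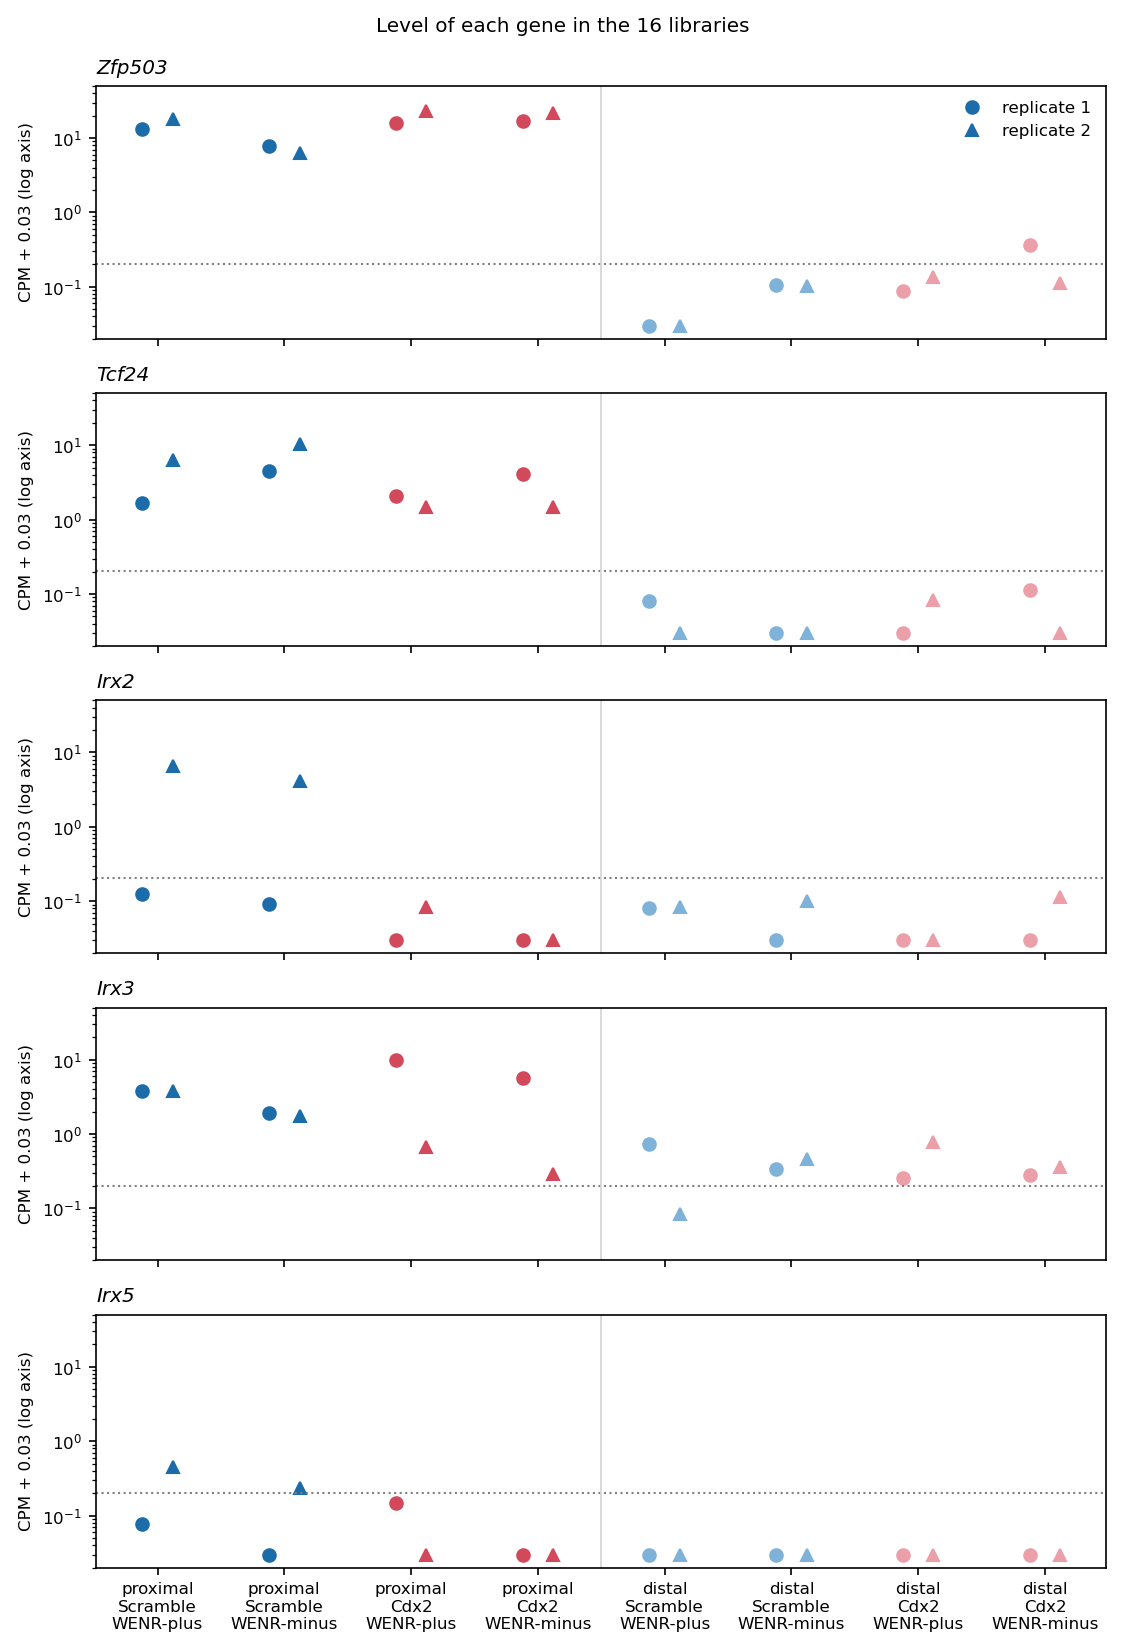
Reads of the 5 genes as CPM (log axis with a small constant added) in each of the 16 libraries, by group, with circles for replicate 1 and triangles for replicate 2; the dotted line stands for 3 reads in a library of median size. Zfp503 and Tcf24 sit above the line in all 8 proximal and below or near it in all 8 distal libraries, and Irx2 stands out in replicate 2 of proximal Scramble-sgRNA organoids.

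Among proximal organoids the level of Zfp503 was lowest in Scramble-sgRNA WENR-minus. In CPM, scaled between libraries, it was 13.4 and 17.8 in Scramble-sgRNA WENR-plus (15.6 ± 3.09, SD, n = 2) and 7.68 and 6.36 in Scramble-sgRNA WENR-minus (7.02 ± 0.938). It was 15.9 and 23.1 in Cdx2-sgRNA WENR-plus (19.5 ± 5.10) and 16.9 and 21.6 in Cdx2-sgRNA WENR-minus (19.2 ± 3.38). Both Scramble-sgRNA WENR-minus libraries lay below the other 6 proximal libraries, and the ranges of the other 3 groups overlapped.

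Whether the medium and the guide change these genes was tested with edgeR's quasi-likelihood test across 15289 genes, and a gene counts as called where the adjusted p is below 0.05 and the log2 fold change above 1 or below −1. The Scramble-sgRNA proximal libraries by which Zfp503 and Tcf24 were chosen also enter these tests, and the medium and guide comparisons of a region share libraries. In proximal Scramble-sgRNA organoids Zfp503 fell in WENR-minus by 1.15 on the log2 scale (SE 0.32, 95% interval −1.89 to −0.40, adjusted p = 0.0232). It was called, and Tcf24 and Irx3 were not, where 17.0% of all genes tested were called. In proximal Cdx2-sgRNA organoids its medium difference was −0.019 (SE 0.32, interval −0.75 to 0.71, adjusted p = 1), and no member was called, where 6.40% of all genes were. The difference between these medium effects was 1.13 (SE 0.45, unadjusted p = 0.0305, adjusted p = 0.182), and Zfp503 was not among the 3.60% of genes called for that difference.

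With Cdx2-sgRNA in place of Scramble-sgRNA, Zfp503 rose in proximal organoids in WENR-minus by 1.46 on the log2 scale (SE 0.33, interval 0.70 to 2.21, adjusted p = 0.00725). In WENR-plus the difference was 0.33 (SE 0.32, interval −0.40 to 1.06, adjusted p = 0.492). Zfp503 was thus 1 of 3 members called in WENR-minus, where 21.2% of all genes were, and 0 of 3 were called in WENR-plus, where 15.9% were. In distal organoids Zfp503, Tcf24 and Irx2 had 10, 3 and 4 reads over the 8 libraries, which leaves nothing to test between guides or media. Irx3, with 50 reads there, was not called between guides (0.262% of genes in WENR-plus, 5.25% in WENR-minus) or between media (26.4% with Scramble-sgRNA, 33.1% with Cdx2-sgRNA).

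Both called differences of Zfp503 rest on the 2 proximal Scramble-sgRNA WENR-minus libraries, and both are sensitive to single libraries. The medium difference ranged from −1.29 to −0.89 when any 1 of its 4 libraries was left out, and the call was lost each time (adjusted p 0.0548 to 0.168). The guide difference lost its call without replicate 2 of Scramble-sgRNA WENR-minus (1.31, adjusted p = 0.0554) and without replicate 2 of Cdx2-sgRNA WENR-minus (1.25, adjusted p = 0.0528). The 5 enteroendocrine markers summed to 65.2 to 86.6 CPM in proximal Scramble-sgRNA WENR-plus, 116 to 176 in Scramble-sgRNA WENR-minus and 0.740 to 1.86 in Cdx2-sgRNA, where Pax4 was at 0. The 5 immune markers summed to 0.625 to 1.78 CPM with Scramble-sgRNA and 4.71 to 10.2 with Cdx2-sgRNA. The 9 epithelial markers summed to 4027 to 4391 CPM in Scramble-sgRNA WENR-plus, 11660 to 12690 in Scramble-sgRNA WENR-minus, 2779 to 3355 in Cdx2-sgRNA WENR-plus and 6416 to 7401 in Cdx2-sgRNA WENR-minus, so that they were highest where Zfp503 was lowest. The part of these markers in the result was not tested.

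Zfp703, the other NET family gene, was present in both regions. It had 700 and 822 reads in proximal Scramble-sgRNA WENR-plus, 381 to 636 in Scramble-sgRNA WENR-minus and 350 to 1171 in proximal Cdx2-sgRNA organoids, against 110 to 551 in distal organoids. Between regions, 1.75% of all genes tested were called in Scramble-sgRNA WENR-plus and 6.08% in Scramble-sgRNA WENR-minus, in either direction. With Cdx2-sgRNA the shares were 17.0% in WENR-plus and 34.6% in WENR-minus. Zfp703 was called higher in proximal than in distal organoids in 3 of the 4 region comparisons and not in Scramble-sgRNA WENR-plus, where the fewest genes were called. In Scramble-sgRNA WENR-minus the log2 difference was 1.58 (SE 0.42, adjusted p = 0.0352), a call that was lost when any 1 of its 4 libraries was left out (adjusted p 0.0606 to 0.210). It was not called between guides.

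The gene next to Zfp503 on the genome had a like order of groups. C130012C08Rik, a transcript whose start lies 2835 bases from that of Zfp503 on the opposite strand, had 18 and 9 reads in proximal Scramble-sgRNA WENR-plus, 0 and 2 in Scramble-sgRNA WENR-minus, 31 and 51 in Cdx2-sgRNA WENR-plus and 16 and 29 in Cdx2-sgRNA WENR-minus. The distal libraries had 0 or 1. It was called lower in WENR-minus with Scramble-sgRNA (adjusted p = 0.0342) and higher with Cdx2-sgRNA in WENR-minus (adjusted p = 0.0117). DESeq2 did not call the first of these (adjusted p = 0.0506). It was lost as well without replicate 1 or 2 of Scramble-sgRNA WENR-plus (adjusted p = 0.144 and 0.0773) or replicate 1 of Scramble-sgRNA WENR-minus (0.162), and the second without the latter library (0.0623). With the Scramble-sgRNA WENR-minus group at the floor, no fitted fold change is given. With Cdx2-sgRNA it also had fewer reads in WENR-minus than in WENR-plus, and it was not called there. Of the 8 genes that reached 1 CPM in a group within 1 Mb of Zfp503, C130012C08Rik was the only 1 called in both of those comparisons. Other neighbours went the other way: Samd8 and Comtd1 were called higher in the first, and Adk lower in the second. Of all genes tested, 17.0% were called in the first and 21.2% in the second.

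**Figure D2:**
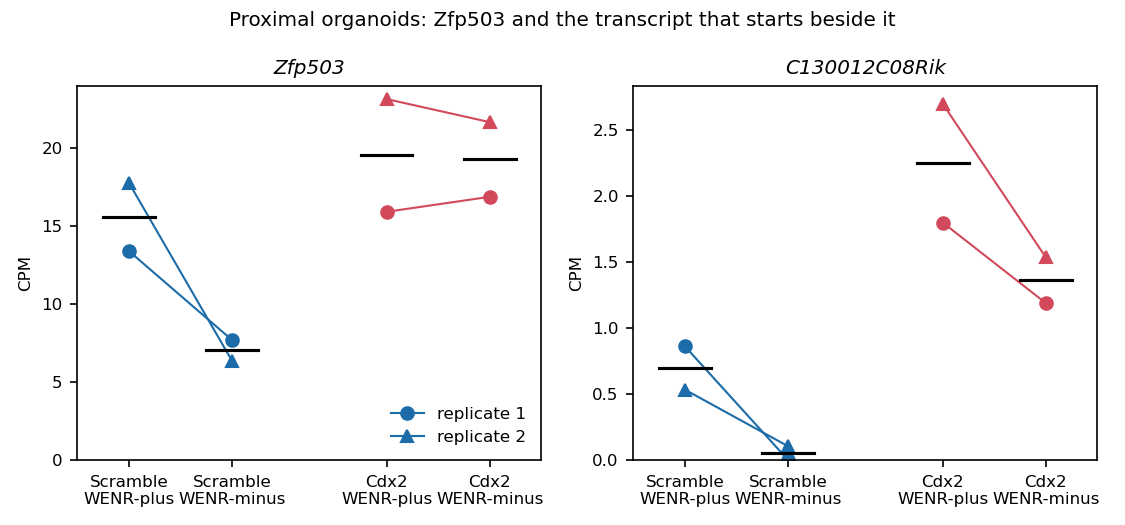
CPM (linear axes that start at 0) of Zfp503 and of C130012C08Rik in the 8 proximal libraries, with coloured lines joining the WENR-plus and WENR-minus libraries of 1 culture, circles for replicate 1, triangles for replicate 2 and black bars for group means. In Scramble-sgRNA organoids both lines of Zfp503 go down, to 7.68 and 6.36, and in Cdx2-sgRNA organoids all 4 libraries lie between 15.9 and 23.1; C130012C08Rik also is lowest in Scramble-sgRNA WENR-minus.

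Tcf24 was likewise read almost only in proximal organoids, at a lower level and with more spread. It had 34 and 107 reads in Scramble-sgRNA WENR-plus, 72 and 198 in Scramble-sgRNA WENR-minus, 35 and 27 in Cdx2-sgRNA WENR-plus and 55 and 27 in Cdx2-sgRNA WENR-minus. The 8 distal libraries held 3 reads together, with at most 1 in any library. The proximal to distal ratio was 144 (counting interval 25.4 to 5719) in Scramble-sgRNA WENR-plus, 62.3 (10.8 to 2501) in Cdx2-sgRNA WENR-plus and 60.2 (10.5 to 2407) in Cdx2-sgRNA WENR-minus, each against 1 distal read. In Scramble-sgRNA WENR-minus, with no distal read, Tcf24 was at least 33.1-fold higher in proximal organoids by the bound at 3 reads per library, which cannot be ranked with the ratios. Here too the pattern was the ground for choosing the gene.

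Within proximal organoids no difference of Tcf24 passed the test. In CPM it was 1.62 and 6.33 in Scramble-sgRNA WENR-plus, 4.46 and 10.3 in Scramble-sgRNA WENR-minus, 2.03 and 1.43 in Cdx2-sgRNA WENR-plus and 4.08 and 1.43 in Cdx2-sgRNA WENR-minus. With Scramble-sgRNA, replicate 2 was 3.90-fold above replicate 1 in WENR-plus and 2.31-fold above it in WENR-minus, and the ranges of the media overlapped with either guide. Within a culture, Tcf24 was higher in WENR-minus than in WENR-plus in both Scramble-sgRNA cultures and in replicate 1 of Cdx2-sgRNA, and replicate 2 had 27 reads in each medium. Between guides the ranges overlapped in WENR-plus, and in WENR-minus both Scramble-sgRNA libraries lay above both Cdx2-sgRNA libraries. Between guides the log2 difference was −1.19 (SE 0.80, adjusted p = 0.307) in WENR-plus and −1.43 (SE 0.79, adjusted p = 0.197) in WENR-minus. Between media it was 0.90 (SE 0.78, adjusted p = 0.419) with Scramble-sgRNA and 0.66 (SE 0.80, adjusted p = 0.650) with Cdx2-sgRNA. Reads were assigned to both transcripts of the gene, and the split varied. In replicate 2 of Scramble-sgRNA all 107 reads in WENR-plus were assigned to Tcf24-202. In WENR-minus 127 were assigned to Tcf24-202 and 71.0 to Tcf24-201. The split is an estimate from the authors' quantification, and whether the reads can tell these transcripts apart was not tested.

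**Figure D3:**
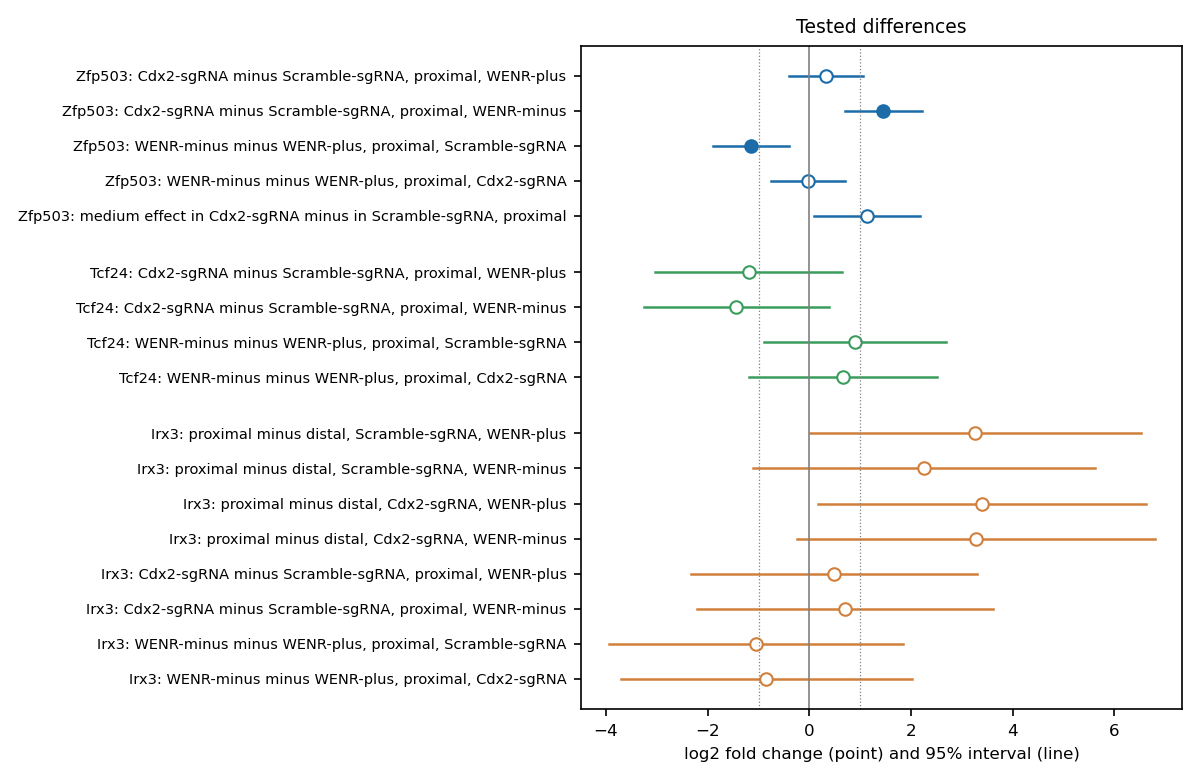
Log2 fold changes with 95% intervals of the members for the comparisons that were tested, with filled points where the gene was called and dotted lines at −1 and 1. Zfp503 is filled in 2 comparisons, 1.46 between guides in WENR-minus and −1.15 between media with Scramble-sgRNA, and the intervals of Tcf24 and Irx3 are wider than those of Zfp503.

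Of the 13 listed bHLH relatives and partners of Tcf24, 9 were tested. In proximal organoids 3 were called higher and 1 lower with Cdx2-sgRNA in WENR-plus, where 15.9% of all genes were called, and 5 higher and 2 lower in WENR-minus, where 21.2% were. Id1, Id2 and Id3 were higher in both media and Tcf23 lower in both, and in WENR-minus Scx and Tcf4 were higher and Id4 lower. Between media in proximal organoids Id1, Id2, Id3 and Tcf23 were called higher in WENR-minus with both guides, and none was lower, where 17.0% of all genes were called with Scramble-sgRNA and 6.40% with Cdx2-sgRNA. Id2 in WENR-minus was higher with Cdx2-sgRNA by 3.74 on the log2 scale (SE 0.38, adjusted p = 4.21e-05). Tcf4, Tcf3 and Tcf12 encode E proteins, of which Tcf12 was called in none of the 12 comparisons. The median log2 fold change of the 9 genes between guides was 0.31 in WENR-plus and 1.01 in WENR-minus, beside −0.050 and −0.00033 over all genes tested. Tcf23 had 0 reads in both proximal Cdx2-sgRNA WENR-plus libraries and 206 and 212 in proximal Scramble-sgRNA WENR-minus.

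Of the 7 symbols listed for the Groucho family, 6 were annotated and tested. In proximal organoids 1 was called lower with Cdx2-sgRNA in WENR-plus (Tle6), where 15.9% of all genes tested were called, and in WENR-minus 1 was higher (Tle2) and 1 lower (Aes), where 21.2% were. The Tle6 call (−1.85, adjusted p = 0.0356) was lost when any 1 of its 4 libraries was left out (adjusted p 0.0581 to 0.195), with the 4 libraries alone (0.0627) and with length-scaled counts (0.356). Tle2 was higher by 3.49 (SE 0.63, adjusted p = 0.00184). The median of the list was −0.46 and −0.59 in the respective media. None was called between media in proximal organoids. In distal WENR-minus, where 5.25% of all genes were called between guides, Tle4 was called higher with Cdx2-sgRNA (1.76, SE 0.26, adjusted p = 0.00431) and Tle1 and Tle3 lower (Tle3 −1.89, SE 0.17, adjusted p = 0.000669).

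Irx2 was read in 1 of the proximal cultures. Replicate 2 of proximal Scramble-sgRNA organoids had 109 reads in WENR-plus and 79 in WENR-minus, which is 6.45 and 4.12 CPM. Replicate 1 of the same group had 2 and 1 reads, and each of the other 12 libraries had 0 or 1. The replicates differed 67.5-fold in WENR-plus and 66.4-fold in WENR-minus, by 1 to 2 reads in the lower library. The gene was chosen for this spread. All 79 reads in WENR-minus were assigned to the coding transcript Irx2-201. In WENR-plus 93.1 were, and 15.9 were assigned to a retained intron. This split too is an estimate.

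Irx3 was read in all 16 libraries, most in proximal ones, and varied between cultures in another group. In proximal Scramble-sgRNA organoids it had 78 and 63 reads in WENR-plus and 30 and 33 in WENR-minus. In proximal Cdx2-sgRNA organoids replicate 1 had 170 reads in WENR-plus and 76 in WENR-minus, and replicate 2 had 12 and 5. Distal libraries had 1 to 14 reads, with a median of 4, so that replicate 2 of Cdx2-sgRNA fell within the distal range and the other 6 proximal libraries lay above it. In CPM the Scramble-sgRNA replicates were alike, at 3.73 and 3.73 in WENR-plus and 1.86 and 1.72 in WENR-minus. The Cdx2-sgRNA replicates were 15.5-fold apart in WENR-plus (9.86 and 0.635) and 21.3-fold apart in WENR-minus (5.64 and 0.264). Clone and mouse cannot be told apart in that difference.

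Irx3 was called in 0 of the 4 region comparisons. The proximal minus distal log2 difference was 3.26 (SE 1.41, adjusted p = 0.320) in Scramble-sgRNA WENR-plus, 2.25 (SE 1.46, adjusted p = 0.360) in Scramble-sgRNA WENR-minus, 3.40 (SE 1.40, adjusted p = 0.0890) in Cdx2-sgRNA WENR-plus and 3.27 (SE 1.53, adjusted p = 0.0958) in Cdx2-sgRNA WENR-minus. Of all genes tested, 1.75%, 6.08%, 17.0% and 34.6% were called in the same order. The unadjusted p was under 0.05 in 2 of the 4, both in WENR-plus (0.0407 and 0.0328). DESeq2 called the 2 Cdx2-sgRNA comparisons (3.46, adjusted p = 0.0329, and 3.30, adjusted p = 0.0400), and edgeR with no filter on low counts called all 4. Without replicate 1 of proximal Cdx2-sgRNA the difference fell to 0.36 in WENR-plus and to −0.15 in WENR-minus, and without replicate 2 it was called in both (4.31, adjusted p = 0.0451, and 4.20, adjusted p = 0.0336).

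In all 4 proximal cultures Irx3 had fewer reads in WENR-minus than in WENR-plus. In CPM it went from 3.73 to 1.86 and from 3.73 to 1.72 with Scramble-sgRNA. With Cdx2-sgRNA it went from 9.86 to 5.64 and from 0.635 to 0.264. The difference did not pass the test. That test does not pair the media of a culture, so the spread between cultures enters its SE. The difference was −1.06 on the log2 scale (SE 1.26, adjusted p = 0.566) with Scramble-sgRNA and −0.85 (SE 1.24, adjusted p = 0.719) with Cdx2-sgRNA. With the culture as a block it was not called with either guide. Between guides in proximal organoids the difference was 0.49 (adjusted p = 0.805) in WENR-plus and 0.70 (adjusted p = 0.713) in WENR-minus. The proximal Scramble-sgRNA reads were assigned mostly to Irx3-202, and all 12 and 5 reads of replicate 2 of Cdx2-sgRNA to Irx3-201. In replicate 1 of Cdx2-sgRNA 94.8 reads in WENR-plus were assigned to Irx3-201 and 75.2 to Irx3-202. In WENR-minus all 76 were assigned to Irx3-202. The reads of each distal library were assigned to a single transcript, which differed between libraries. These splits are estimates, and whether the reads can tell the transcripts apart was not tested.

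Irx5 had 14 reads in all, in 4 proximal libraries, and 0 in the 8 distal ones. Replicate 2 of proximal Scramble-sgRNA had 7 reads in WENR-plus and 4 in WENR-minus, replicate 1 had 1 and 0, and replicate 1 of proximal Cdx2-sgRNA had 2 in WENR-plus. The library with the most Irx2 reads was thus also the one with the most Irx5 reads. Whether reads of the shared 65-base run were placed in Irx5 was not tested. The remaining family members were at or near 0, with no read of Irx1 or Irx6 and at most 3 reads of Irx4 in any library.

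**Figure D4:**
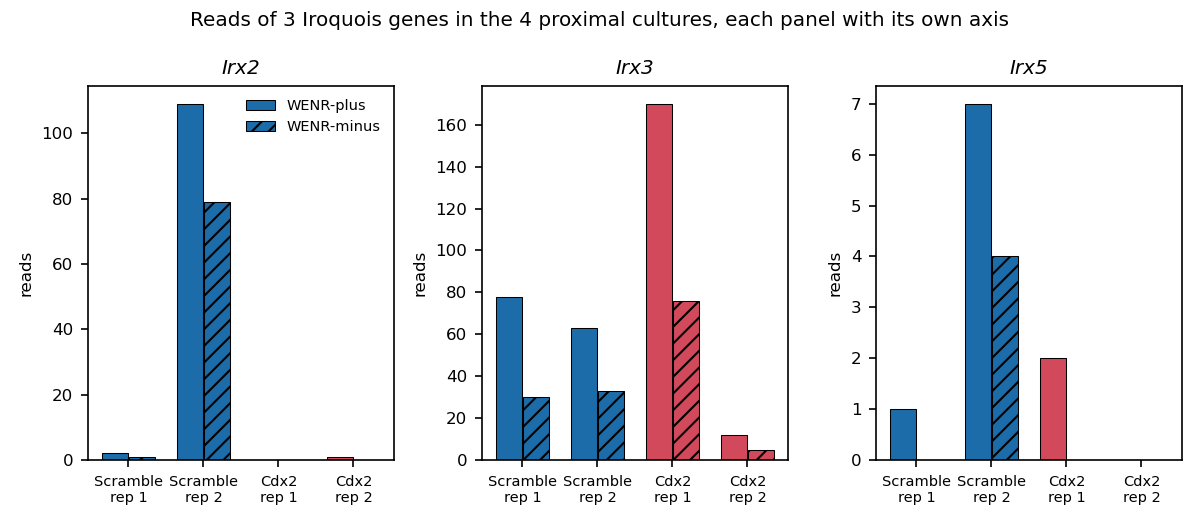
Reads of Irx2, Irx3 and Irx5 (linear axes that start at 0, a different scale in each panel) in the 4 proximal cultures, with plain bars for WENR-plus and hatched bars for WENR-minus. Irx2 and Irx5 are highest in replicate 2 of proximal Scramble-sgRNA (109 and 7 reads in WENR-plus), and Irx3 in replicate 1 of proximal Cdx2-sgRNA (170 reads).

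In TPM, which corrects for transcript length, the proximal libraries held 2.30 to 8.21 of Zfp503, 0.473 to 4.10 of Tcf24, 0.176 to 6.50 of Irx3, 0 to 5.43 of Irx2 and 0 to 0.279 of Irx5. Zfp503 had the highest median (6.16), followed by Irx3 (1.68) and Tcf24 (1.33), whose ranges overlapped. In distal libraries the highest TPM of any member was 0.469, of Irx3.

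Other TALE homeobox genes encode proteins that often bind DNA beside homeodomain partners. Of 12 listed 11 were tested, and edgeR called none in the 4 guide comparisons, where 0.262% to 21.2% of all genes were called. Meis1 was lower in proximal organoids in all 4 region comparisons, with 0 to 2 reads in proximal and 12 to 102 in distal libraries, where 1.75% to 34.6% of all genes were called. Tgif1 was higher in proximal organoids in WENR-minus with both guides, with a log2 difference of 1.46 (SE 0.19, adjusted p = 0.000120) with Cdx2-sgRNA. Tgif2 was lower in WENR-minus in all 4 medium comparisons, where 6.40% to 33.1% of all genes were called. The median of the 11 genes between regions was 0.14, 0.42, 0.68 and 1.13 in the order used above for Irx3, beside 0.0049, 0.075, −0.0058 and 0.13 over all genes tested.

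Among 14 further gut transcription factors outside the Hox clusters, 10 were tested. Osr2 and Tbx3 were higher in proximal organoids in all 4 region comparisons, where 1.75% to 34.6% of all genes were called. Osr2 had 453 to 1181 reads in proximal and 1 to 8 in distal libraries, and Tbx3 357 to 1170 and 4 to 39. With Cdx2-sgRNA in proximal organoids Isx, Nr5a2 and Foxd2 were called lower in both media, and Gata4 in WENR-minus, where 15.9% of all genes were called in WENR-plus and 21.2% in WENR-minus. For Isx, a homeobox gene of the intestinal epithelium, the log2 difference in WENR-minus was −8.59 (SE 0.28, adjusted p = 1.11e-08). Prdm1 was higher in WENR-plus (3.08, SE 0.45, adjusted p = 0.000745), and Gata6 and Onecut2 were higher in WENR-minus. In distal organoids too Isx was called lower with Cdx2-sgRNA in both media. In distal WENR-minus Nr5a2 was also called lower and Tbx3 higher. Of all genes tested, 0.262% were called between guides in distal WENR-plus and 5.25% in distal WENR-minus.

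The genes most like each member were sought over the 16 libraries by Pearson's r of log2 CPM among 12862 protein-coding genes, as a description, since the libraries share 2 regions. For Zfp503 they were Hoxd8 (r = 0.988), Tbx3 (0.968), Hoxb8 (0.965), Hoxb7 (0.961) and Osr2 (0.961). Hoxd8 had 117 to 433 reads in proximal and 0 or 1 in distal libraries. For Tcf24 they were Ereg (0.977), an EGF family growth factor gene, Osr2 (0.953), Tbx3 (0.935), Hoxd4 (0.930) and Hoxb8 (0.926). Like Tcf24, Ereg was read mostly in proximal libraries and was highest in replicate 2 of Scramble-sgRNA WENR-minus, with 2181 reads, and lowest among proximal libraries in replicate 2 of Cdx2-sgRNA, with 112 and 148.

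For Irx2 the most alike genes were Xlr3b (0.982), Hs6st2 (0.956), Akr1c21 (0.932), Igf2 (0.890) and Hoxb2 (0.885). In replicate 2 of proximal Scramble-sgRNA they had 33, 24, 28, 31 and 128 reads in WENR-plus and 24, 15, 40, 18 and 108 in WENR-minus, in the order named. Replicate 1 had none of Xlr3b, Hs6st2 and Igf2, 7 and 3 reads of Akr1c21 and 3 and 6 of Hoxb2. These genes were picked for following Irx2, so their reads in that culture are part of the choice. For Irx3 they were Psma6 (0.891), Phf11d (0.881), Zfp558 (0.832), Zfp781 (0.829) and Tesc (0.803). Phf11d had 434 and 293 reads in replicate 1 of proximal Cdx2-sgRNA and 68 and 48 in replicate 2.

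Genes near the members on the genome did not all follow them. Within 1 Mb of the start, 13 of 43 genes near Tcf24, 6 of 22 near Irx2, 11 of 50 near Irx3 and 10 of 47 near Irx5 reached 1 CPM in a group. Near Tcf24, which was not called between guides, 2 of the 13 (Mybl1 and 2610203C22Rik) were called higher with Cdx2-sgRNA in proximal organoids in both media and Adhfe1 lower in WENR-minus, where 15.9% and 21.2% of all genes were called in WENR-plus and WENR-minus. Between regions, neighbours of Tcf24 called higher in proximal organoids numbered 0 of 13 in Scramble-sgRNA WENR-plus, 3 in Scramble-sgRNA WENR-minus, 2 in Cdx2-sgRNA WENR-plus and 6 in Cdx2-sgRNA WENR-minus, where 1.75%, 6.08%, 17.0% and 34.6% of all genes were called in either direction. Among them 2610203C22Rik was called in the last 3 and Sgk3 in both WENR-minus comparisons. Of the 10 within 1 Mb of Irx5, 5 (Ces1d, Ces1e, Ces1f, Ces1g and Lpcat2) were called lower with Cdx2-sgRNA in proximal organoids in both media. Of all genes tested, 15.9% were called in either direction in WENR-plus and 21.2% in WENR-minus. The called carboxylesterase genes (Ces1d to Ces1g) start 840213 to 979683 bases from the start of Irx5, and Lpcat2 497714.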

How the data were processed

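The authors quantified paired-end reads from a SMARTer stranded total RNA kit with Salmon 1.1.0 on GENCODE vM23 transcripts (mm10), per the submitters' processing notes and the study's methods, and tested genes with DESeq2, of which the notes name version 1.32 and the study's list of resources another. Each deposited table gives a library's transcripts with their expected counts as Salmon estimated them, unscaled. The deposited TPM and effective lengths come from the same Salmon run by the authors. Of 140748 transcripts 139864 matched the GENCODE vM21 annotation of GRCm38; the other 884 held 0.257 to 0.509% of a library's counts and were left out.

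Counts were summed per gene, rounded and tested in R 4.3.3 with edgeR 4.0.16 (filterByExpr, TMM scaling, 1 coefficient per group, 8 residual degrees of freedom, Benjamini-Hochberg adjustment over 15289 genes). CPM are TMM-scaled. Intervals of fold changes are the SE times the t quantile at 8 degrees of freedom. DESeq2 1.42.0 and the other alternatives are in the closing section, and the code was tested on simulated data. A gene is at the floor in a group where no library has over 3 of its reads. The 2 replicates came from independent mice, per the study's methods. Both media of a replicate come from 1 culture: deviations from group means correlated with r of 0.28 to 0.59 between media of the same region and guide, but r passed 0.1 in only 9 of 28 pairs of groups. The fit reported does not pair the media of a culture. The members, gene lists and motifs were chosen with earlier results of these data known. Genes were named from the lists by the highest and lowest called fold changes, within 1 Mb of a member by 1 CPM in a group, and by the 5 highest r. Some genes of the lists are not reported here.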

Additional observations from a re-analysis of the deposited data

How the results depend on the processing

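Differences of the members kept their direction and side of the threshold in 201 alternative values, became called in 8, lost the call in 6 and changed sign in 11. For Irx3 the number of called region comparisons was 0 in the fit reported, 2 with DESeq2 and 4 with no filter on low counts, and 0 to 1 when 1 library was left out; with the 4 libraries alone it could not be tested in Cdx2-sgRNA WENR-minus. The number of called guide differences was 1 and ranged from 0 to 1 without 1 library, and that of called medium differences likewise from 0 to 1. Without 1 library the guide difference of Zfp503 in proximal WENR-minus ranged from 1.25 to 1.65 and its medium difference with Scramble-sgRNA from −1.29 to −0.89; under the other alternatives both stayed called (adjusted p 0.000295 to 0.0184 and 0.00719 to 0.0494). Signs changed only in differences that were not called. With a replicate block for the pairing by number, the guide difference of Irx3 in proximal WENR-plus was −0.043; the block changed no call of a member. With length-scaled counts the medium difference of Zfp503 in Cdx2-sgRNA was 0.021. Without 1 library the ranges that crossed 0 were −2.55 to 1.40 and −2.70 to 1.65 for the guide difference of Irx3 in WENR-plus and WENR-minus, −4.22 to 2.20 for its medium difference with Cdx2-sgRNA, −0.15 to 4.20 for its region difference in Cdx2-sgRNA WENR-minus, −0.25 to 0.28 for the medium difference of Zfp503 with Cdx2-sgRNA, −0.24 to 1.24 for that of Tcf24, and −1.83 to 0.11 for the guide difference of Tcf24 in WENR-plus. The cause was not tested. With 2 libraries per group and few reads of Tcf24, Irx2, Irx3 and Irx5, replication and depth limit these values. The counts of called genes behind the shares over all genes moved too. Between regions in Scramble-sgRNA WENR-plus 267 genes were called, 80 to 138 without 1 library and 209 to 1039 under the other alternatives. Between media in proximal Cdx2-sgRNA organoids 978 were, 313 to 1211 without 1 library, and 0 with the 4 libraries alone to 2063 with no fold threshold. For the difference of medium effects in proximal organoids 550 were, 46 to 793 without 1 library. Between guides in distal WENR-plus 40 were, 14 to 28 without 1 library and 4 to 586 otherwise. Between guides in distal WENR-minus 802 were, 131 to 576 without 1 library, and between regions in Scramble-sgRNA WENR-minus 929 were, 342 to 786 without 1 library.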

Other observations

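Meis2, a TALE homeobox gene, was noticed after its values were seen to part the same replicates as Irx3. In proximal Cdx2-sgRNA organoids replicate 1 had 324 reads in WENR-plus and 212 in WENR-minus, and replicate 2 had 42 and 27. It was not called between guides.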
